A study of Mus musculus with 2 samples.

Results

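The SLC25 genes encode the mitochondrial carrier family, and their mRNAs were examined in brown adipose tissue (BAT) of wild-type (WT) and Taf7l knockout (KO) mice. Members were taken by name, as every gene called Slc25a followed by a number, which gave 42 of the 30649 gene names in the table. Of these, 32 reached 1 FPKM (fragments scaled to transcript length and to the mapped reads) in at least 1 library and were compared, among 12171 genes compared in all. In the KO library, 9 of the 32 carriers (28.1%) were at least 1.5-fold higher, where 16.5% of all genes compared were. They were led by Slc25a12, which was low in both libraries, Slc25a42 and Slc25a23. Only Slc25a33 (3.12%, against 12.7% of all genes) was at least 1.5-fold lower, and 22 lay within 1.5-fold. After a correction for GC content and transcript length, described further on, 6 were higher (18.8%, against 11.4%) and 2 lower (6.25%, against 6.89%). Of the carriers most directly tied to ATP export, Slc25a4 had nearly equal values in both libraries and Slc25a5 was 1.11-fold higher in KO. The acylcarnitine carrier Slc25a20 also had nearly equal values.

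Each library was made from polyA RNA of interscapular BAT, extracted from 6 mice of a genotype and then pooled. The labels give both a C57BL/6 background, and the methods give C57BL/6J for the KO line. One pool was WT, and the other came from mice lacking Taf7l, which encodes a paralog of the TFIID subunit TAF7, and the labels name no tissue-specific deletion. An age of 1 month is given for both pools in one label, while another gives 3 months for the KO pool, so that genotype and a possible difference in age cannot be told apart. With 1 library per genotype there was no replicate, and every difference below is a description without a p-value.

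Carriers of this family sit in the inner mitochondrial membrane, where they exchange nucleotides, phosphate, carboxylates, amino acids and cofactors between the matrix and the cytosol. In brown fat they supply substrates to mitochondria that release energy as heat, and UCP1, the protein that lets protons return without making ATP, belongs to the same family under another name. Most members have paralogs with overlapping cargo, and the paralogs often differ in the tissues that use them.

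Promoter sequences are shown for 4 members. Slc25a4 and Slc25a5 are the abundant ADP/ATP carriers, and both were within 1.5-fold between the pools. Slc25a42 and Slc25a33 lay farthest apart in either direction among carriers at 10 FPKM or more. Each sequence is the RefSeq window from 250 bases before to 50 after the annotated start on GRCm38.p6, printed along the gene. The windows are chr8:46211013-46211312 on the minus strand, chrX:36795347-36795646 on the plus strand, chr8:70212232-70212531 on the minus strand and chr4:149774218-149774517 on the minus strand. Capitals mark matches to TATAA on the gene strand and, on either strand, to the CCAAT box, the GC box and an ETS-type motif, whose letters are spelled out where they are counted further on. A match on the opposite strand is capitalised as its reverse complement.
Slc25a4: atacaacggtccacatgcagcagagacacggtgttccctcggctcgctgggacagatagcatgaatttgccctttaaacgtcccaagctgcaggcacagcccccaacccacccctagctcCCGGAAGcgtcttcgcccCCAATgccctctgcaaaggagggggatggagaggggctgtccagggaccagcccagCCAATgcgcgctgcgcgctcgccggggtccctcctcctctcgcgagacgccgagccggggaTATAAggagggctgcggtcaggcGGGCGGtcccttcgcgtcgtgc
Slc25a5: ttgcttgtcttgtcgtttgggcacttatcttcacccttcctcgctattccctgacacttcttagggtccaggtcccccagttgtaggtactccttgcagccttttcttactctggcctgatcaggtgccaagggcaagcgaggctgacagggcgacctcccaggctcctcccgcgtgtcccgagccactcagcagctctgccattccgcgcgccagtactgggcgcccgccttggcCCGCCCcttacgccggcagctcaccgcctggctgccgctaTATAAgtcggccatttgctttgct
Slc25a42: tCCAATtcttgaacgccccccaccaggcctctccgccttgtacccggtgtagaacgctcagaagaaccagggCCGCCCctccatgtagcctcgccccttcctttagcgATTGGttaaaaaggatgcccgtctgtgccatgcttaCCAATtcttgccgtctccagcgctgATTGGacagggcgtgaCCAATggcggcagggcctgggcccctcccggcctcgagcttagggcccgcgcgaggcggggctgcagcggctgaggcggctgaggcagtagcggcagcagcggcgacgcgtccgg
Slc25a33: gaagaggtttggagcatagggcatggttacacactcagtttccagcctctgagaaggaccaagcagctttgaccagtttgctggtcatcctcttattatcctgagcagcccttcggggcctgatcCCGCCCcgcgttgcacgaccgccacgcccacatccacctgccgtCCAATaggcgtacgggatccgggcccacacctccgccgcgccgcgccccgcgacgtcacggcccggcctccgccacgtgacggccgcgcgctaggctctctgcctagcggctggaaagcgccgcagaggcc
In these windows TATAA began at base 5 after the RefSeq start in Slc25a4 and at base 26 in Slc25a5. For Slc25a5, the gene start given further on, chrX:36795651, is from another annotation and lies past the end of its window. Its TATAA therefore lies after the RefSeq start but before that other start. Slc25a42 held 5 matches to CCAAT, and Slc25a33 held 1.

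RefSeq windows were found for 32 of the 42 members, 25 of them among the carriers compared, with 41 windows in all because some genes have several starts. GGGCGG, the GC box bound by SP1-type factors, was present on either strand in 35 of the 41 windows (85.4%), against 35.7% of 32851 windows of all genes. TATAA on the gene strand was found in 3 windows (7.32%), of Slc25a4, Slc25a5 and Slc25a21, against 17.5% of all windows. CCAAT on either strand was in 48.8% of the carrier windows and in 37.4% of all. CCGGAAG, an ETS-type motif, was in 14.6% against 8.86%, GCGCATGC, an NRF1-type motif, in 2.44% against 2.71%, and AAGGTCA, a nuclear receptor half-site, in 2.44% against 4.72%. The carrier windows had a median GC content of 59.7%, against 52.7% over all windows. These motifs were counted by their letters alone.

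Across the table as a whole, 12.7% of genes compared were at least 1.5-fold lower in the KO pool and 16.5% at least 1.5-fold higher. Among the carriers the shares were 3.12% (1 of 32) and 28.1% (9 of 32). Slc25a12, Slc25a29 and Slc25a25 reached 1 FPKM in the KO library alone, and the first 2 are among the 9, while Slc25a14 reached it in WT alone. With a minimum of 10 FPKM, 6 of 21 carriers (28.6%) were higher, against 13.3% of all genes. At 3-fold, where 0.403% of all genes were lower and 2.05% higher, no carrier was called in either direction. Differences were taken as log2((KO + 0.1)/(WT + 0.1)), which understates those of low genes. On this scale the carriers ran from -0.71 to 1.53, with a median of 0.10 and a middle 50% from -0.14 to 0.63, while all genes had a median of 0.01 and a middle 50% from -0.35 to 0.40. In all, 14 carriers were below 0 and 18 above it.

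**Figure D1:**
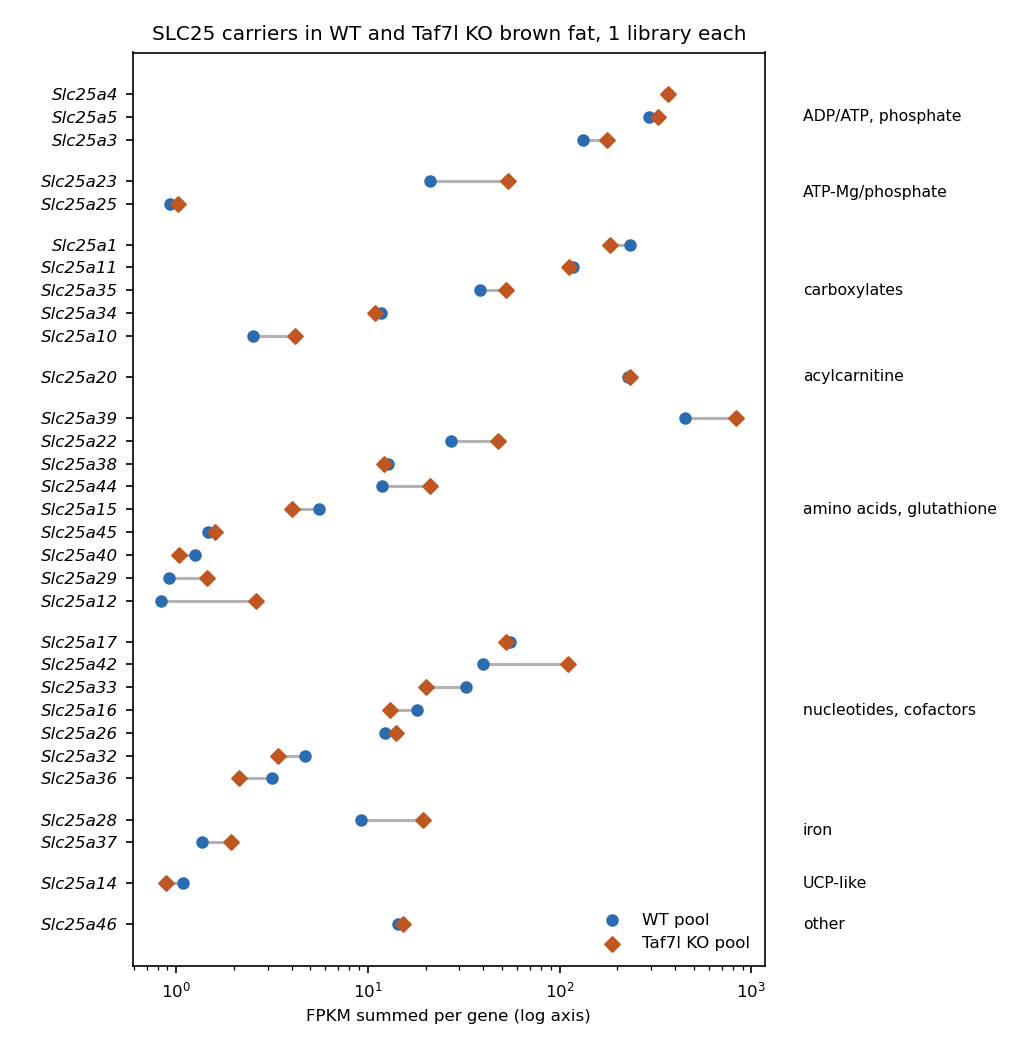
FPKM of 31 of the 32 carriers compared, on a log axis, in the WT pool (circles) and the Taf7l KO pool (diamonds), 1 library each, grouped by cargo. Slc25a39 was highest in both pools (449.9 and 834 FPKM), and the symbols of Slc25a4 and Slc25a20 nearly coincide.

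Values given in pairs are in FPKM, WT before KO. Whole fat pads hold several cell types, so fewer cells of a type and less RNA per cell cannot be told apart. Of 10 brown fat markers, 6 were at least 1.5-fold lower in the KO pool and none was called higher, although Prdm16 (1.304 and 2.003 FPKM), Kcnk3 (59.99 and 86.0 FPKM) and Pdk4 (289 and 311 FPKM) had higher values there. Their sum, most of it from Cox8b, Ucp1, Cox7a1 and Cidea, was 14999 against 6845 FPKM, and Ucp1 was at 3720 and 1639 FPKM. All 17 skeletal muscle fibre markers were at least 3-fold higher, with none at 0, and their sum went from 115 to 1993 FPKM. Of the macrophage markers, 4 of 8 were at least 1.5-fold higher (sum 89.4 and 101 FPKM), of the endothelial markers 1 of 8 (119 and 143 FPKM). Of the heart markers only Myh6 could be compared, at 1.303 and 35.0 FPKM, and Nppb and Myl7 were listed at 0 in both pools. General fat markers were mixed, with 2 of 9 at least 1.5-fold lower, 2 at least 1.5-fold higher and a median log2 ratio of 0.03. The part of these cell types in the carrier values was not tested. From the steps between low values, 25952000 mapped reads were estimated for WT and 78514000 for KO, and the intervals below are exact binomial 95% intervals on reads estimated for 1 kb of transcript, which cover counting error only. For 31 of the carriers compared, the transcript taken for the gene was 1200 bp or longer. Taf7l itself was near 0 in both pools (0.0222 and 0.00734 FPKM), too low to check the genotype.

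The ADP/ATP and phosphate carriers, which bring ADP and phosphate to the ATP synthase and take ATP out, were among the most abundant members. Those compared were within 1.5-fold. Slc25a4, the form typical of heart and skeletal muscle (chr8:46206797-46211284 on GRCm38), was at 368 (WT) and 367 FPKM (KO), an estimated ratio of 0.995 with an interval of 0.972 to 1.02. Its level was nearly equal in both pools. The muscle markers were at least 3-fold apart, and the part of muscle in the Slc25a4 value was not tested. Slc25a5, the form found in most tissues (chrX:36795651-36798807), was at 294 (WT) and 327 FPKM (KO), a ratio of 1.11 (1.08 to 1.14). These paralogs are alike in sequence, and 1 pseudogene named after Slc25a5 is annotated, so the split of short reads between such copies is uncertain. Pseudogenes under other names were not counted. The ratio of Slc25a4 to Slc25a5, which does not depend on the scaling between libraries, was 1.26 in WT and 1.12 in KO. Slc25a3, the phosphate carrier, had 132 (WT) and 177 FPKM (KO), a ratio of 1.34 (1.29 to 1.39), below the 1.5-fold mark. After the correction for GC content and length described further on, Slc25a4 was at -0.05 on the log2 scale. Slc25a5 was then at 0.43 and Slc25a3 at 0.56, the latter just under the mark. The testis-type ADP/ATP carrier Slc25a31 stayed under 1 FPKM in both.

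The nuclear-encoded subunits of the ATP synthase, which these carriers serve, were less even. Of 15 subunits, 6 were at least 1.5-fold lower and 1, Atp5g1, at least 1.5-fold higher in KO (12.7% and 16.5% of all genes), with a median log2 ratio of -0.39 against 0.15 for the 3 ADP/ATP and phosphate carriers compared. Atp5k was at 6370.1 and 3535 FPKM, Atp5l at 3794 and 1588 FPKM and Atp5b at 2907 and 2794 FPKM. After the correction for GC content and length described further on, of the 6 only Atp5l stayed at least 1.5-fold lower (-0.66 on the log2 scale), and Atp5g1 stayed higher (1.11).

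Among the calcium-responsive ATP-Mg/phosphate carriers, which adjust the adenine nucleotide pool of the matrix, a single gene held most of the mRNA. Slc25a23 (chr17:57043711-57059863) had 21.1 (WT) and 53.8 FPKM (KO), which is 2.55-fold higher (2.33 to 2.79). Its relatives were scarce: Slc25a25 had 0.924 and 1.02 FPKM, a ratio of 1.11 with an interval of 0.691 to 1.82, and Slc25a24 and Slc25a41 did not reach 1 FPKM. Slc25a23 therefore exceeded Slc25a25 by 22.9 times in WT and by 52.7 times in KO.

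The carboxylate carriers move citrate, malate and oxoglutarate, and none of the abundant ones was 1.5-fold apart as deposited. Slc25a1, the citrate carrier that feeds fatty acid synthesis in the cytosol, was at 234 (WT) and 183 FPKM (KO), a ratio of 0.784 (0.761 to 0.808). Slc25a11, the oxoglutarate carrier of the malate-aspartate shuttle, was at 117 and 112 FPKM. Slc25a10, the dicarboxylate carrier, was low but 1.66-fold higher in KO, at 2.51 and 4.18 FPKM (1.27 to 2.21). After the correction for GC content and length described further on, Slc25a1 was past the 1.5-fold mark (-0.62 on the log2 scale). Slc25a10 was then below it, at 0.30. For Slc25a34 and Slc25a35, whose cargo is less settled, the values were 11.6 and 10.8 FPKM and 38.5 and 52.4 FPKM. Slc25a35 shares 31.3% of its exon bases with Rangrf on the opposite strand, and reads of the 2 genes may not be separable.

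Enzymes on either side of these carriers gave mixed values. Acly, which splits the exported citrate, had 234 (WT) and 102 FPKM (KO) and was the 1 of 9 shuttle and citrate partners that was at least 1.5-fold lower. Got1 and Got2, the transaminases of the malate-aspartate shuttle, were the 2 that were higher, at 8.49 and 14.3 FPKM and at 5.89 and 10.5 FPKM. By the same mark, 12.7% of all genes compared were lower and 16.5% higher. Gpd1 and Mdh2, among the most abundant partners, were at 1537 and 1445 and at 799.8 and 835 FPKM.

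Slc25a20 carries acylcarnitines into the matrix for fatty acid oxidation, the main fuel of brown fat. It was at 227 (WT) and 232 FPKM (KO), a ratio of 1.02 with an interval of 0.994 to 1.05, and its direction turned when the KO library was scaled to the WT upper quartile, a log2 shift of -0.09. Among its 5 partners in the carnitine shuttle, Cpt1b (208 and 228 FPKM) and Cpt2 (201 and 179.96 FPKM) were also within 1.5-fold. Crat, the carnitine acetyltransferase, was at least 1.5-fold higher, at 129.7 and 203 FPKM, as was Cpt1a, at 1.89 and 3.16 FPKM. Neither was past that mark after the correction for GC content and length described further on (0.39 and 0.51 on the log2 scale). Slc22a5, the carnitine importer of the cell membrane, was lower, at 28.9 and 17.8 FPKM, and stayed so after correction (-0.78).

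Of the 9 amino acid and glutathione carriers compared, 5 were at least 1.5-fold higher in KO and none at least 1.5-fold lower. Over all genes compared the shares were 16.5% and 12.7%. Of the 5, Slc25a12 and Slc25a29 reached 1 FPKM in the KO library alone, so the filter let them in through the higher value. The median log2 ratio of these carriers was 0.60, and 0.35 after the correction for GC content and length described further on. Slc25a44 and Slc25a29 fell below the mark with that correction. Slc25a39, which carries glutathione into mitochondria (chr11:102402985-102407946), was the most abundant carrier of all, at 449.9 (WT) and 834 FPKM (KO), 1.85-fold higher (1.82 to 1.89). Its paralog Slc25a40 was at 1.26 and 1.04 FPKM, so that Slc25a39 made up nearly all of this pair in both pools. Slc25a12, the aspartate/glutamate carrier aralar of muscle and brain (chr2:71271063-71367749), had the highest log2 ratio of the family but a low level, 0.836 (WT) and 2.61 FPKM (KO). That is a 3.12-fold difference (1.98 to 5.02), resting on about 21.7 and 205 reads per kb, and its log2 ratio of 1.53, taken with the pseudocount, stayed under the 3-fold mark. Slc25a13, its liver-type paralog citrin, was near 0 (0.119 and 0.105 FPKM).

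Slc25a22, a glutamate carrier, was at 27.1 and 47.7 FPKM, 1.76-fold higher in KO (1.63 to 1.91). Its paralog Slc25a18 stayed below 1 FPKM in both pools. Slc25a44, a carrier of branched-chain amino acids described in brown fat, was at 11.9 and 20.9 FPKM, also 1.76-fold higher (1.56 to 2.0003). Slc25a29, a carrier of basic amino acids, was the least firm of the 5, at 0.918 and 1.44 FPKM, with an interval of 0.995 to 2.53 around 1.57-fold. The remaining members were within 1.5-fold: Slc25a38, the glycine carrier needed for haem, had 12.7 and 12.1 FPKM, Slc25a15, an ornithine carrier, 5.53 and 4.03 FPKM, and Slc25a45 1.46 and 1.595 FPKM.

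The carriers of nucleotides, cofactors and vitamins held both the member that was lower and one of the 3 that were farthest higher. Slc25a42, which imports coenzyme A (chr8:70184340-70212305), had 39.6 (WT) and 110.0 FPKM (KO), 2.78-fold higher (2.60 to 2.97), and 97.7% of all genes compared had a log2 ratio at or below its own. Slc25a33, a pyrimidine nucleotide carrier (chr4:149744036-149774277), had 32.6 (WT) and 19.96 FPKM (KO), a ratio of 0.612 (0.562 to 0.666). An antisense gene, Gm13068, overlaps 14.9% of its exon bases, as Gm11788 does 11.3% of Slc25a10 and Gm17168 4.80% of Slc25a23, and the methods give default settings of TopHat and cufflinks, which do not use strand. Its paralog Slc25a36 was at 3.16 and 2.14 FPKM (ratio 0.676, interval 0.517 to 0.893), and the ratio of Slc25a33 to Slc25a36 was 10.3 in WT and 9.35 in KO. After the correction for GC content and length described further on, Slc25a36 was at -0.10 on the log2 scale and Slc25a33 at -0.74.

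Slc25a16, which has also been tied to coenzyme A, lay on the other side of 1 from Slc25a42, with 18.04 and 12.97 FPKM (ratio 0.719, interval 0.644 to 0.804). Also measured were the peroxisomal cofactor carrier Slc25a17 (54.8 and 52.6 FPKM), the S-adenosylmethionine carrier Slc25a26 (12.3 and 14.0 FPKM) and the folate or FAD carrier Slc25a32 (4.71 and 3.41 FPKM). In this group the median log2 ratio was -0.26 over 8 members, and -0.10 after the correction for GC content and length.

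**Figure D2:**
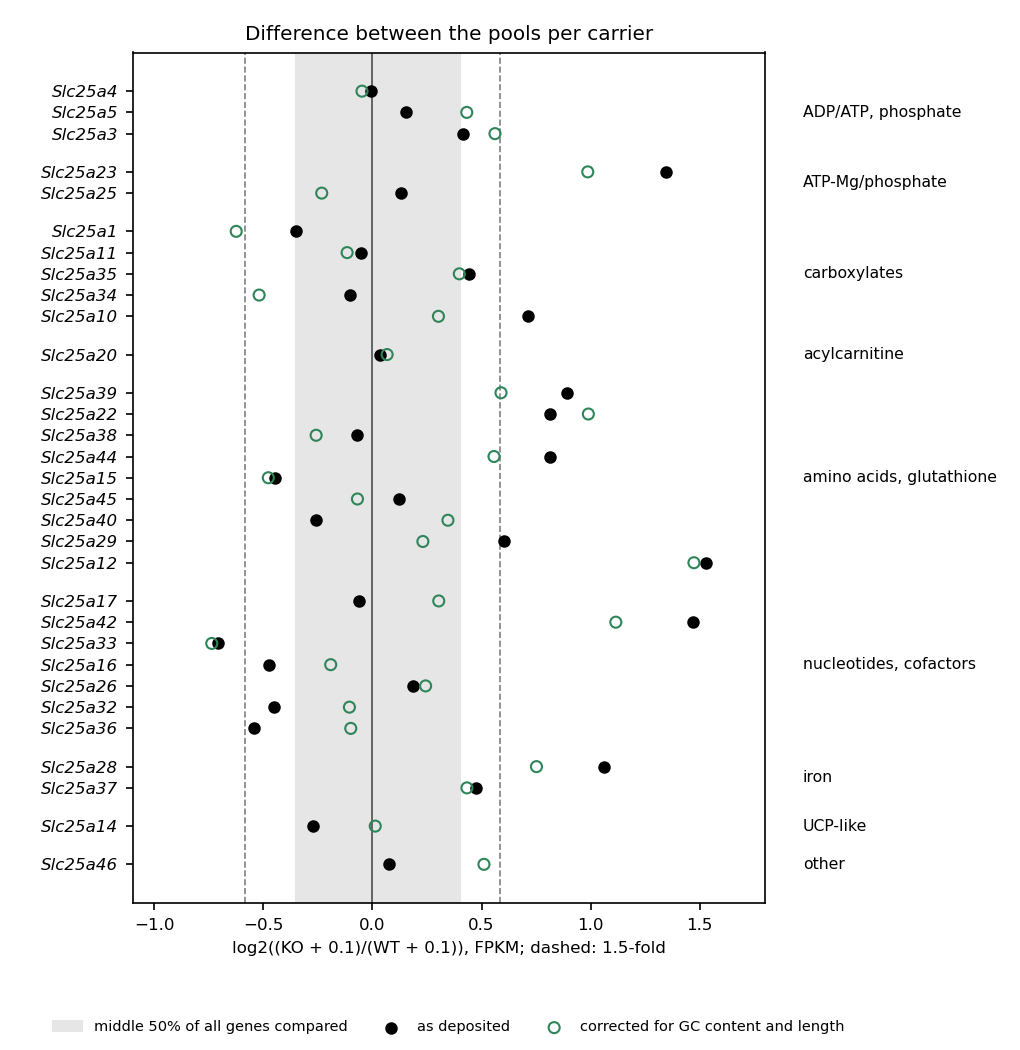
Log2 ratio of 31 carriers between the KO and WT pools as deposited (filled circles) and after correction for GC content and transcript length (open circles), with the middle 50% of all genes shaded and 1.5-fold marked by dashed lines. Slc25a12 and Slc25a42 lie farthest to the right on both scales, and Slc25a33 farthest to the left.

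The mitoferrins bring iron into the matrix for haem and iron-sulphur clusters, and 1 of the 2 was at least 1.5-fold higher in KO. Slc25a28, mitoferrin 2, which serves most tissues (chr19:43663801-43674881), was at 9.18 and 19.3 FPKM, 2.10-fold higher (1.84 to 2.42). Slc25a37, mitoferrin 1 of red cell precursors, was at 1.37 and 1.94 FPKM, 1.42-fold higher with an interval of 0.965 to 2.07. Of 6 red cell markers in the table, 3 could be compared and 1 was at least 1.5-fold lower (sum 5698 and 4544 FPKM): Hba-a2 was at 1812 and 2497 FPKM, Hbb-b1 at 3876 and 2038 FPKM and Alas2 at 10.2 and 8.84 FPKM. Their part in the iron carrier values was not tested.

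Of the uncoupling-protein-like carriers under Slc25 names, Slc25a14 alone was compared, at 1.09 and 0.886 FPKM. Slc25a46, which acts in mitochondrial shape at the outer membrane, was at 14.4 and 15.1 FPKM. Members under 1 FPKM in both pools numbered 10 (Slc25a2, Slc25a13, Slc25a18, Slc25a21, Slc25a24, Slc25a27, Slc25a30, Slc25a31, Slc25a41 and Slc25a43), with 0.932 FPKM as their highest value, and none was at 0 in a library. Such values are too low for a ratio at this depth.

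Summed over all 42 members, carrier mRNA came to 2340.3 (WT) and 2885 FPKM (KO), a ratio of 1.23. Slc25a39 alone gave 384 of the 545 FPKM between the sums, and without it the ratio was 1.09. The 8 most abundant members held 85.9% of the family in WT and 83.7% in KO. Slc25a39 went from 19.2% to 28.9%, while Slc25a4 and Slc25a5 together went from 28.3% to 24.03% and Slc25a1 from 9.98% to 6.35%. For scale, the family sum was 0.629 times the Ucp1 value in WT and 1.76 times in KO.

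**Figure D3:**
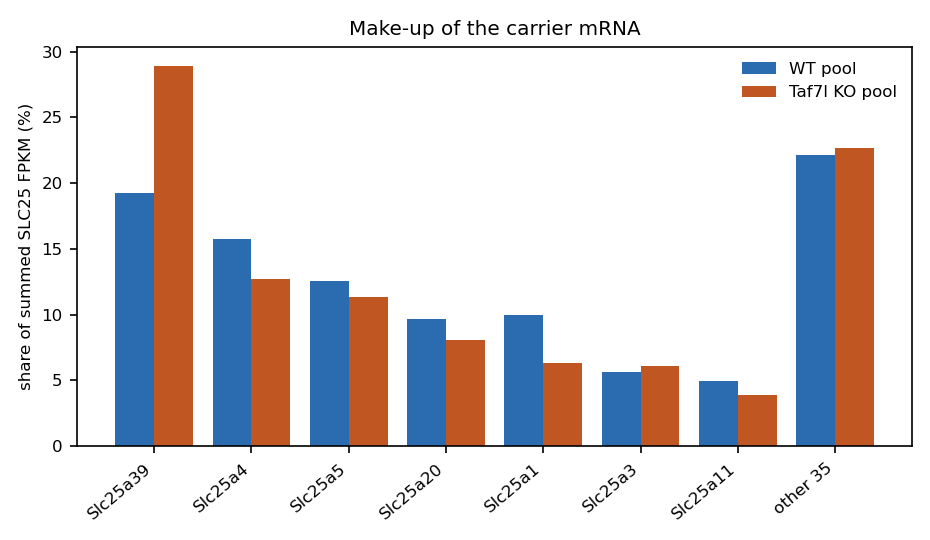
Share of the summed SLC25 FPKM held by each of 7 abundant carriers and by the other 35 members, in the WT and Taf7l KO pools (bars, 1 library each). Slc25a39 stood at 19.2% and 28.9% of the sum, and Slc25a1 stood at 9.98% and 6.35%.

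The table lists several transcript rows for 20 of the carriers compared. Rows of a gene share reads, so they are not independent. Among the 14 such carriers at 10 FPKM or more, all rows lay on 1 side of equality in 11. Slc25a42 had 3 rows, 2.83-fold, 2.52-fold and 2.84-fold higher. In Slc25a39 the rows were unequal: the row spanning 1269 bp went from 311 to 638 FPKM, 2.05-fold, and that spanning 4537 bp from 139 to 196 FPKM, 1.41-fold. The short row held 69.1% of the gene in WT and 76.5% in KO, and with the other row alone Slc25a39 was below the 1.5-fold mark. The rows of Slc25a4 had ratios of 0.980 and 1.03, and those of Slc25a38 0.891 and 1.36.

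**Figure D4:**
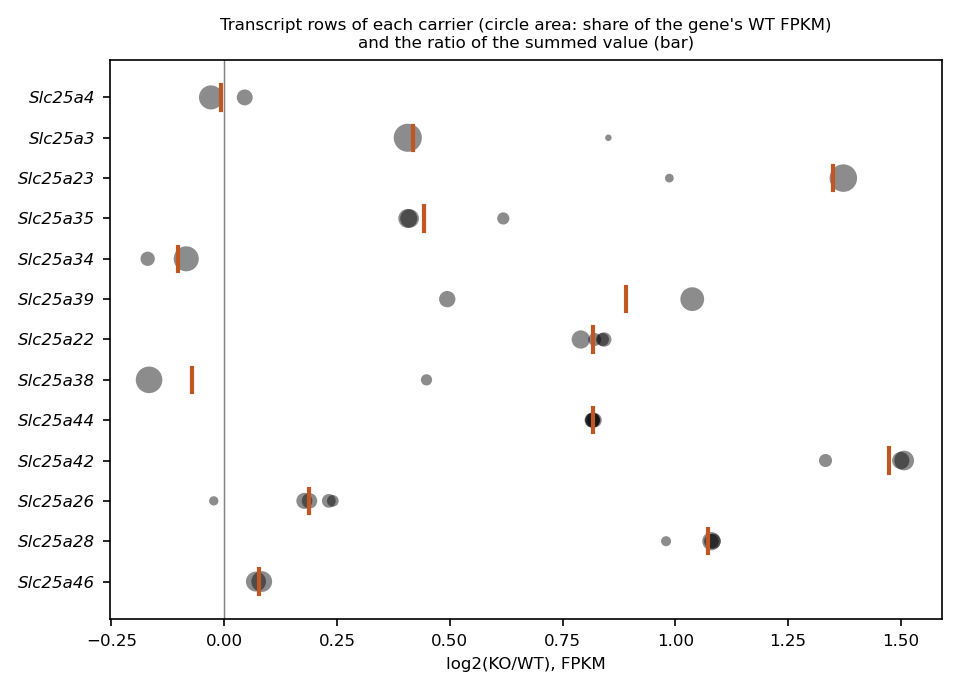
Log2 ratio between the KO and WT pools for each transcript row (circles, area by share of the gene's WT FPKM) of 13 carriers with several rows and at least 10 FPKM, with the ratio of the summed value as a bar. The rows of Slc25a39 lie apart at 2.05-fold and 1.41-fold, and those of Slc25a44 coincide.

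Across genes, the ratio between the pools followed the GC content of the transcript. Over 8372 genes with an annotated protein-coding transcript, Pearson's r between GC content and log2 ratio was 0.39, and over the 32 carriers it was 0.44. Genes are not independent replicates. Genes were split into 5 bins of equal number by GC content. In the bin of highest GC content, 35.0% of all genes were at least 1.5-fold higher, and 6 of the 9 carriers there were. In the lowest bin, 2.33% of all genes were higher and none of 5 carriers was. The carriers compared had a median GC content of 52.8%, against 50.7% for all genes.

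**Figure D5:**
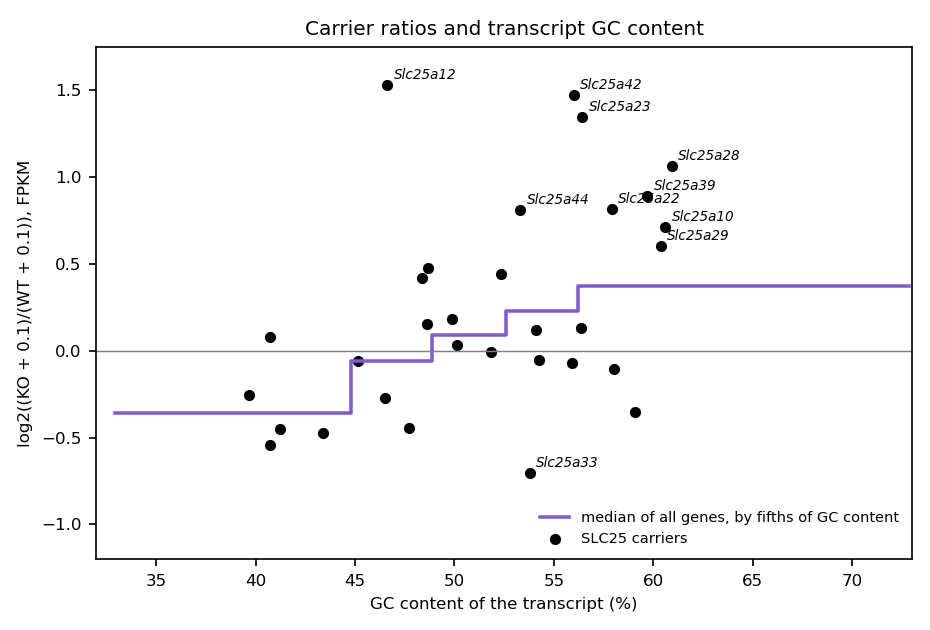
Log2 ratio of 31 carriers against transcript GC content (points), with the median of all genes in 5 bins of GC content as a line. Slc25a12 lies high at a GC content of 46.6%, and the other 8 carriers that were at least 1.5-fold higher lie between 53.3% and 60.9%.

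After subtraction of the running median by GC content and length, 6 carriers (18.8%) were at least 1.5-fold higher, where 11.4% of all genes were, and 2 (6.25%) at least 1.5-fold lower, where 6.89% were. The 6 were Slc25a12 (1.47), Slc25a42 (1.12), Slc25a22 (0.99), Slc25a23 (0.99), Slc25a28 (0.75) and Slc25a39 (0.59) on the log2 scale. Slc25a39 was thus at the mark, and the matched transcript of Slc25a22 is only 423 bp long. For Slc25a12, Slc25a28 and Slc25a39 no transcript matched the highest row, and the longest of that name was used. Slc25a44, Slc25a10 and Slc25a29 fell below the mark, at 0.56, 0.30 and 0.23. Slc25a33 remained lower, and Slc25a1 joined it at -0.62. The corrected median was 0.24 for the carriers and 0.04 for all genes. Slc25a14, Slc25a17, Slc25a25, Slc25a40 and Slc25a45, all within 1.5-fold, had the opposite sign after correction. The source of the trend with GC content was not tested.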

How the data were processed

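Per the labels and the methods, RNA of 6 mice per genotype was pooled into 1 polyA library each. The authors mapped reads with TopHat 1.4.0 and deposited FPKM made with cufflinks 1.3.0, with 1 iteration of its likelihood step, and the submitters' notes name Bowtie and mm10. Starts in the table mostly did not match GRCm38 positions, so its coordinates were not used and gene positions are from GENCODE M21. Here FPKM were summed per gene name over 55350 rows, and genes at 1 FPKM or more in a library were compared with a pseudocount of 0.1 FPKM (numpy 2.4.6, scipy 1.17.1, pandas 2.3.3 and matplotlib 3.10.9 under Python 3.11.15). Depth was estimated from low values, of which 91.6% in WT and 79.2% in KO came within 0.1 of a whole read. The KO estimate exceeds the yield in the labels. Reads used a fragment length of 200 bp (SD 80 bp). The correction for GC content and length used running medians in 20 bins. Both were those of a protein-coding transcript matched by span to the gene's highest row. Where none matched, the longest protein-coding transcript of that name was taken. Scripts were tested on simulated data. Compared members are named except 1 that is not reported here, other lists by abundant genes or by genes chosen after values were seen. Members and lists were chosen with earlier results of these data known. Alternatives covered pseudocount, filter, scaling, rows and GC content.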

Additional observations from a re-analysis of the deposited data

How the results depend on the processing

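No paired analysis was possible because there was 1 library per genotype. With a pseudocount of 0.01 FPKM, 1 carrier, Slc25a12, was at least 3-fold higher. The count at least 1.5-fold lower was 2 without a filter, with upper-quartile scaling and with the GC and length correction. These were 4.76%, 6.45% and 6.25% of the carriers, against 10.6%, 16.8% and 6.89% of all genes. Beside Slc25a33, the carriers called were Slc25a31, under 1 FPKM in both pools, Slc25a36 and Slc25a1, in that order. Upper-quartile scaling, under which 16.8% of all genes were lower and 13.5% higher, called 2 carriers lower and 8 higher of 31, and gave a median of -0.0083 and a summed ratio of 1.16. The corrected median was 0.24. The summed ratio was 1.22 with the highest row per gene, 1.31 without Slc25a4 and Slc25a5, and 1.11 with Slc25a39 without its highest row, an alternative chosen after seeing the data. With the highest row per gene the Slc25a4 to Slc25a5 ratio, KO over WT, was 0.881 instead of 0.895. The count at least 1.5-fold higher ran from 6 to 9 (18.8% to 32.1%), against 11.3% to 17.1% of all genes. Slc25a12, Slc25a22, Slc25a23, Slc25a28, Slc25a33 and Slc25a42 stayed past 1.5-fold in all alternatives that gave them a value. Slc25a39 did so except without its highest row, where its log2 ratio was 0.49, Slc25a44 in 8 of 9, Slc25a10 in 6 of 8 and Slc25a29 in 5 of 8. No spread between pools of a genotype can be had from 1 library each, and intervals cover counting error only. The cause of these moves was not tested.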

Other observations

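Of 6 carrier family genes compared under other names, 1 was at least 1.5-fold lower in the KO pool, Ucp1, and 1 at least 1.5-fold higher, Ucp2. Among all genes compared, 12.7% were lower and 16.5% higher by that mark. After correction for GC content and length Ucp1 was at -0.98 and Ucp2 at 0.55 on the log2 scale, the latter under the mark. Beside Ucp1, Ucp2 was at 6.12 (WT) and 11.2 FPKM (KO) and Ucp3, the form typical of muscle, at 32.2 and 34.4 FPKM. Mtch1 and Mtch2, outer-membrane relatives of the carriers, were at 854 and 809 FPKM and at 208 and 188 FPKM. Mcart1, the older name of Slc25a51, was at 67.2 and 79.9 FPKM.

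Among 11 other mitochondrial membrane channels and carriers, 2 were at least 1.5-fold lower and 1 at least 1.5-fold higher in KO. Over all genes compared the shares were 12.7% and 16.5%. The median log2 ratio of the 11 was -0.24. It was 0.04 after correction for GC content and length, for which Brp44 and Brp44l had no value. Brp44l and Brp44, the subunits of the mitochondrial pyruvate carrier, were at 1566 and 668 FPKM and at 528 and 377 FPKM. Tspo, an outer-membrane protein, was at 917 and 417 FPKM. These genes are not SLC25 members, and their values are given without explanation.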
